A study of Drosophila melanogaster with 13 samples.

Results

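The somatic sex determination pathway of Drosophila melanogaster is run by a short chain of splicing regulators, and 10 of its genes were followed here through sex, larval diet and strain in the heads of young adults. The genes, matched by FlyBase symbol among 17370 genes counted, were Sxl, tra, tra2, dsx, fru, ix, her, vir, fl(2)d and snf. All 10 passed the filter on low counts, with 70 to 5310 reads per library. In head RNA of males, tra, dsx and fru lay at 68.5% to 77.9% of the female level, Sxl at 80.15% without passing the threshold on all samples, and the 6 other genes at 95.05% to 114.3%. In 12 fits that each left out 1 sample, the call by sex was lost in 10 for tra, 7 for dsx and 2 for fru. Whether Sxl passed changed with 2 libraries whose line labels are in doubt. None of the 10 genes passed the threshold by larval diet, which only 0.0997% of all tested genes passed.

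Each sample was 1 pool of 70 to 80 heads from flies collected 2 to 6 h after they left the pupal case. The flies came from 3 isofemale lines, SD2, SD3 and SD6, collected near the University of California San Diego, and carried no stated transgene or mutation. Larvae were raised in vials at 25 °C on 1 of 2 foods, HPS (more protein and less sugar, protein to carbohydrate ratio 0.43) or LPS (less protein and more sugar, ratio 0.1). With 1 pool for each sex, diet and line there were 12 RNA samples, 6 per sex, 6 per diet, 4 per line and 3 for each sex on each diet, and males and females of a line and diet grew up in the same set of vials. The lines are the replicates of each sex and diet, so a p-value reflects only how far these pools spread, and each isofemale line stands for 1 founding female rather than for a population.

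In XX flies Sxl, an RNA-binding protein, is switched on by the dose of the X chromosomes and then keeps itself on by directing the splicing of its own transcript. It also directs the splicing of tra to a form that makes protein, and Tra with Tra2 sets the female splice of dsx and blocks the male splice of fru. In XY flies Sxl and Tra protein are missing, dsx and fru are spliced the male way, and the resulting transcription factors shape sex-specific tissues and the circuits of courtship. Control therefore lies mainly in which exons are joined, which counts per gene do not show: a gene's count sums its male and female forms.

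The annotation of the genes shows how much of that is hidden. In the Ensembl annotation of BDGP6, Sxl and snf lie on the X chromosome, tra on arm 3L, dsx and fru on 3R, her on 2L, and tra2, ix, vir and fl(2)d on 2R. Sxl (FBgn0264270) has 25 annotated transcripts, fru (FBgn0004652) has 15, dsx (FBgn0000504) and tra2 (FBgn0003742) have 7 each. The tra gene (FBgn0003741) has 2, one of 687 nt with an open reading frame of 197 codons and one of 862 nt whose frame stops after 36 codons, and both count toward the same total. Exons of the 10 genes overlapped no other gene on the same strand. On the opposite strand l(3)73Ah covered 8.58% of the exon bases of tra (gene lds 1.84% of dsx).

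Libraries held between 7.84 M and 25.3 M reads in genes. A gene's level is its count for each M reads in genes (CPM), after TMM scaling of the library sizes. Male LPS SD2 has a pair of libraries, 1 in each run. They were taken to be of the same RNA, which the sample titles do not state, and summed to 1 sample of 27.5 M reads. The smaller run, with 2 of the 13 libraries, holds SD2 males only, both the sole library of male HPS SD2 and the second of male LPS SD2. Between the 2 libraries labelled male LPS SD2 the log2 CPM of the 10 genes differed by −0.37 (snf) to 0.37 (dsx), with a difference of 0.33 for Sxl.

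Among the male LPS samples 2 libraries stood apart from their line labels. Samples of the same line deviated together from their group means, with correlations across genes of 0.617 to 0.809. For the library labelled male LPS SD3 and the library labelled male LPS SD6 these correlations were −0.363 to −0.269 with samples of the line they are labelled as, and 0.641 to 0.767 with samples of the other one. Sex went with its label in all 12 samples. roX1, a noncoding RNA of male dosage compensation, had 644 to 972 CPM in the 6 male samples against 0.53 to 3.12 CPM in the 6 female ones. The results of each comparison are first given with all samples as labelled, then in the 10 samples that remain without both libraries.

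Gene against gene, levels were compared per kilobase of merged exons (CPM per kb). snf (FBgn0003449), the fly protein of the U1 and U2 spliceosomal particles, was highest at 46.1 ± 3.65 CPM per kb (mean ± SD, n = 12). fl(2)d followed at 23.0 ± 1.197, Sxl at 21.3 ± 3.46, tra at 17.1 ± 4.02 and ix at 15.9 ± 2.33 CPM per kb. All 5 lay above the median of 12.4 CPM per kb over 9880 tested genes with a length.

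Below that median came her at 9.80 ± 0.87, tra2 at 9.64 ± 1.004, vir at 5.45 ± 0.65, fru at 3.62 ± 0.57 and dsx at 2.96 ± 0.75 CPM per kb. By this measure the terminal regulators dsx and fru were the lowest of the 10 genes, with 18.9% and 21.2% of the tested genes below them. Several neighbours in this order were not separated: fl(2)d exceeded Sxl in 7 of 12 samples, tra exceeded ix in 7 and her exceeded tra2 in 6. Sxl exceeded tra, and fru exceeded dsx, in 10 of 12 samples, and every other neighbouring pair kept its order in all 12. Lengths of merged exons count every annotated exon, also those that one sex skips, which lowers the value per kb of genes with many alternative exons. Merged exons came to 18.4 kb for fru, 9.17 kb for dsx and 9.19 kb for Sxl. The longest transcripts of these genes have 8399, 6941 and 5964 nt, whereas both lengths are 835 for snf. The order of the genes thus holds for merged exons only, and an order by transcript length was not tested.

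**Figure D1:**
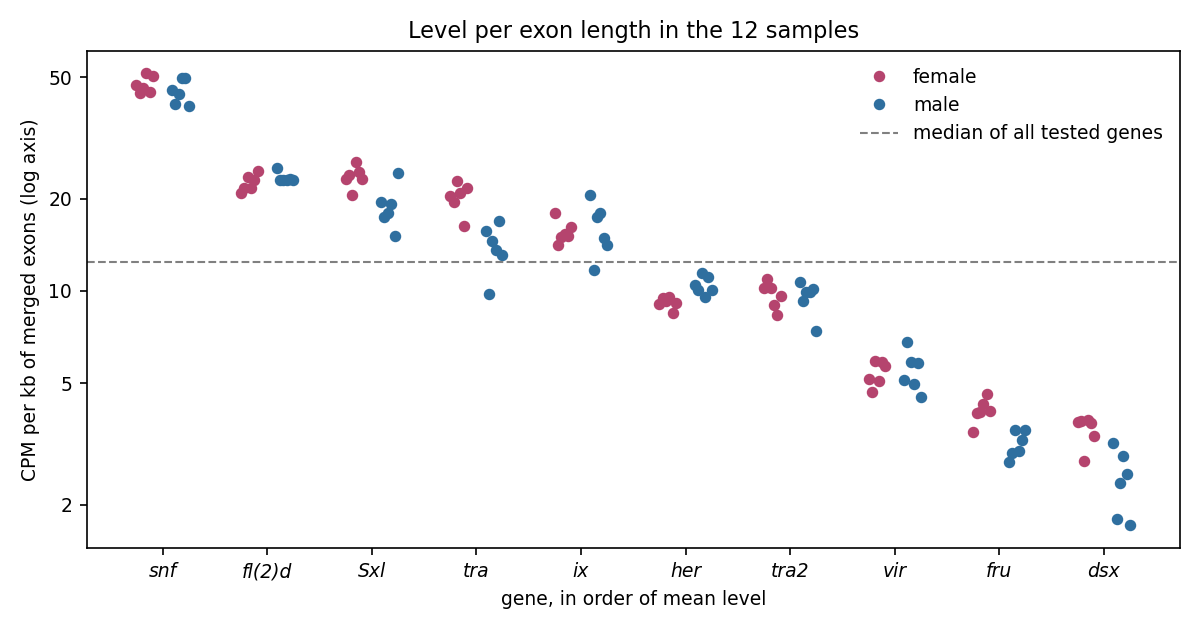
Level per kilobase of merged exons (CPM per kb, logarithmic axis) of the 10 genes in the 12 samples, with points coloured by sex and the median of all tested genes as a dashed line. snf stands highest at a mean of 46.1 CPM per kb, and fru and dsx stand lowest at 3.62 and 2.96.

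Genes also differed in how far they varied between samples. The SD of log2 CPM over the 12 samples was 0.401 for dsx and 0.360 for tra, against a median of 0.215 over all tested genes. It was 0.075 for fl(2)d, and only 1.75% of the tested genes had a smaller one. Between these ends lay Sxl at 0.244 and fru at 0.230, near the median of all genes, and vir, tra2, her and snf from 0.169 down to 0.115.

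**Figure D2:**
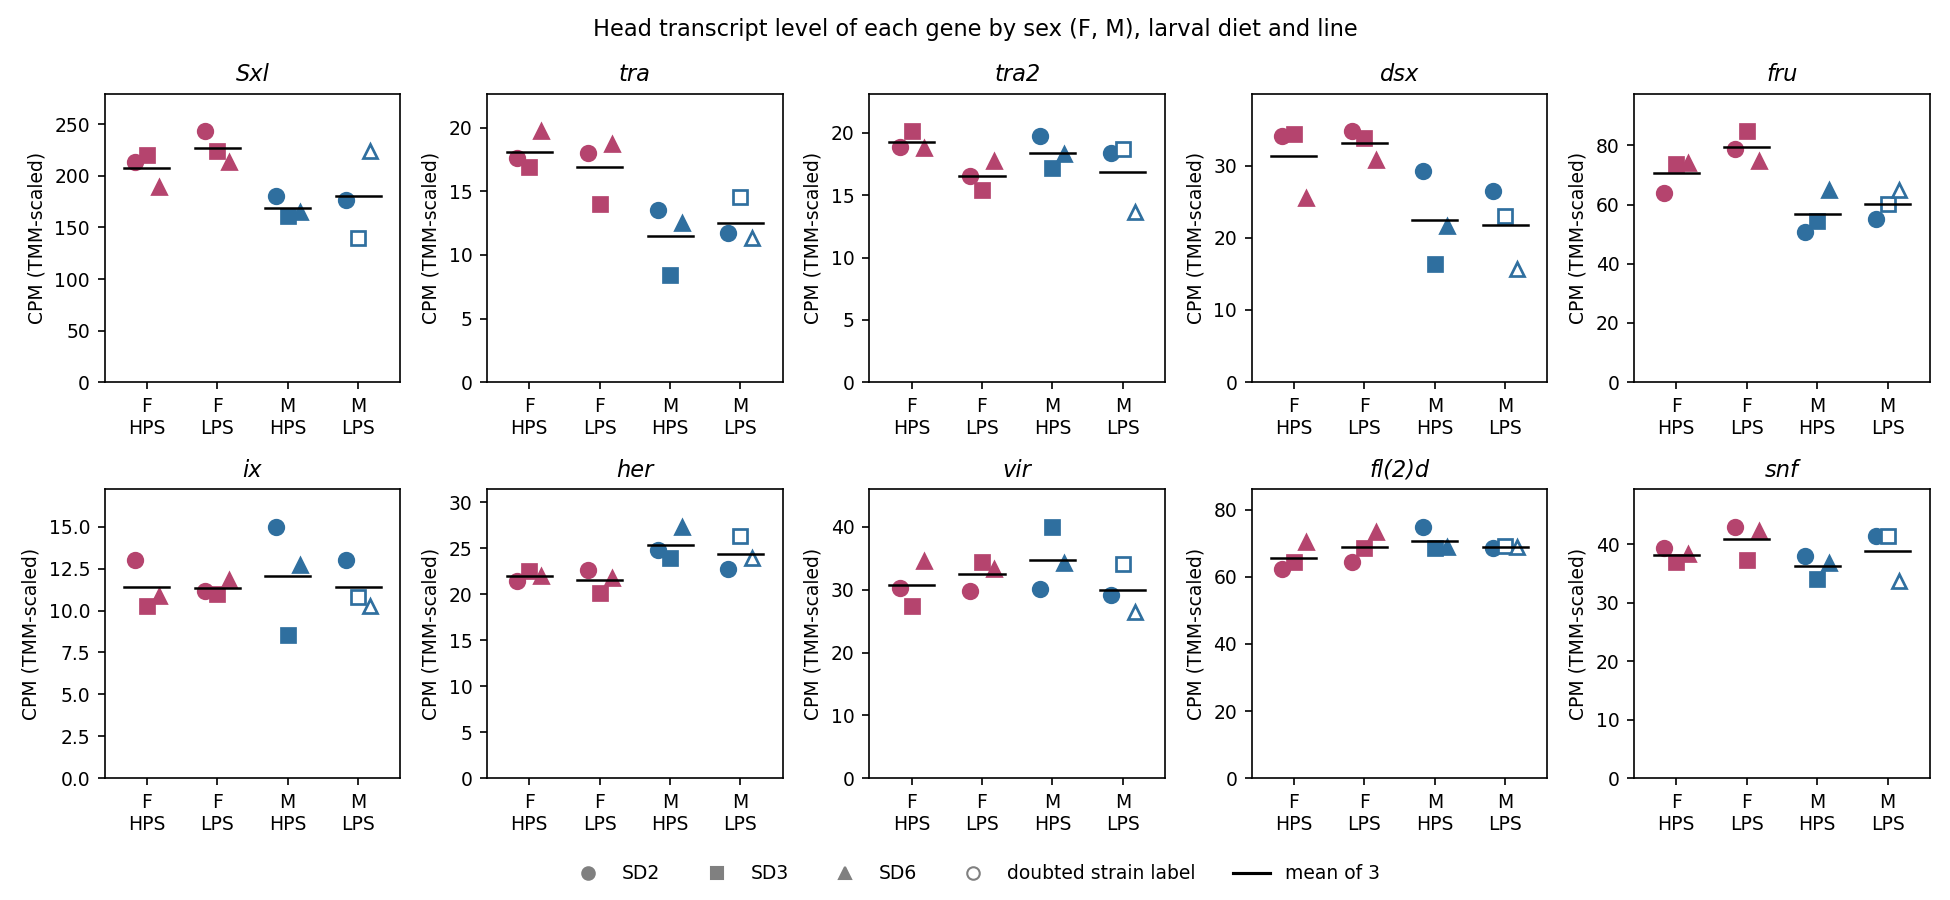
Level (CPM) of each of the 10 genes in each of the 12 samples, with 1 panel per gene, points grouped by sex (F, M) and diet, shapes for the lines, open symbols for the 2 doubted libraries and a bar at the mean of 3. Male points of dsx, fru and tra lie mostly under the female ones, whereas those of fl(2)d and snf intermingle.

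By sex, 3 of the 10 genes passed the threshold of an adjusted p below 0.05 (edgeR's quasi-likelihood F-test with Benjamini-Hochberg adjustment over 10026 genes), all 3 lower in males. Over all tested genes 305 passed, or 3.04%, and 2.17% passed as lower in males. At an unadjusted p below 0.05 there were 5 of the 10 genes (dsx, her, tra, fru and Sxl) against 17% of all genes. The median log2 difference, male minus female, was −0.04 over the 10 genes and 0.01 over all tested genes. Without the 2 doubted libraries 4 of 10 passed, all lower in males, against 7.72% of the genes tested and 4.93% as lower. The other 6 then lay between −0.06 (snf) and 0.17 (her) and were not called. With a block for each set of vials, which pairs the males and females that grew up together, fru alone passed (edgeR adjusted p = 0.0317), and dsx (0.0616) and tra (0.0724) did not, at log2 differences of −0.56 and −0.54. Over all tested genes that fit also called fewer than the 305 above, as given in the last section.

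At the head of the chain, Sxl had 214, 220 and 189 CPM in SD2, SD3 and SD6 females on HPS and 243, 224 and 214 CPM in those on LPS. Males had 180, 161 and 165 CPM on HPS and 177, 139 and 224 CPM on LPS in the same order. The male LPS sample labelled SD6, one of the doubted libraries, lay above 4 of the 6 female samples, and without it the sexes did not overlap. The mean was 217 ± 17.5 CPM in females and 174 ± 28.3 CPM in males (SD, n = 6 each), a log2 difference of −0.32 ± 0.10 (SE) with a 95% interval of −0.54 to −0.11, which missed the threshold (edgeR adjusted p = 0.119). Males were lower in 5 of 6 pairs of the same line and diet. Without the 2 doubted libraries Sxl was lower in 4 of 4 pairs and changed by −0.34 ± 0.06 (edgeR adjusted p = 0.00491).

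The genes whose products help Sxl splice its transcript had no called sex difference. vir and fl(2)d encode subunits of the complex that writes N6-methyladenosine into RNA, and snf binds Sxl in the spliceosome. Levels of snf ran from 36.9 to 42.9 CPM with a median of 38.8 in females, and from 33.6 to 41.5 with a median of 37.3 in males. The samples of the sexes overlapped in part, and the log2 difference was −0.07 ± 0.07 (95% interval −0.22 to 0.08, edgeR adjusted p = 0.649).

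For fl(2)d females had 62.3 to 73.4 CPM with a median of 66.6, and males had 68.5 to 74.8 CPM with a median of 68.8. Its difference of 0.05 ± 0.06 (interval −0.07 to 0.18, edgeR adjusted p = 0.695) was the most tightly bounded of the 10 genes. For vir the female range was 27.4 to 34.5 CPM with a median of 31.8, inside the male range of 26.5 to 40.0 with a median of 32.1, and the difference was 0.02 ± 0.10 (interval −0.19 to 0.23, edgeR adjusted p = 0.953). The interval of vir includes a difference of the size found for her, described below.

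The tra transcript, of which the form for full-length protein is spliced in females alone, was lower in males. SD2, SD3 and SD6 females had 17.6, 16.9 and 19.7 CPM on HPS and 18.0, 14.0 and 18.7 CPM on LPS. Males had 13.6, 8.40 and 12.5 CPM on HPS and 11.7, 14.6 and 11.3 CPM on LPS. The female LPS SD3 sample and the male sample labelled LPS SD3 were the only ones that crossed, 14.0 against 14.6 CPM, and every other male sample lay below every female one. The mean fell from 17.5 ± 1.96 to 12.0 ± 2.13 CPM, a log2 change of −0.53 ± 0.12 (95% interval −0.80 to −0.25, edgeR adjusted p = 0.049).

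Males were lower in 5 of 6 pairs for tra, and in 4 of 4 without the doubted libraries, where the change was −0.63 ± 0.09 (edgeR adjusted p = 0.00155). As labelled, the call held in 2 of the 12 fits that left out 1 sample each, those without a doubted library, and was lost in the other 10, with an adjusted p of up to 0.129. tra2, whose RNA-binding product is needed beside Tra in females and is present in both sexes, had 15.4 to 20.1 CPM with a median of 18.3 in females and 13.6 to 19.7 with a median of 18.3 in males. Its log2 difference was −0.02 ± 0.09 (interval −0.21 to 0.18, edgeR adjusted p = 0.955).

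dsx, which encodes the DM-domain transcription factor at the end of the somatic branch, fell in males to 68.5% of the female mean. SD2, SD3 and SD6 females had 34.2, 34.4 and 25.5 CPM on HPS and 34.8, 33.8 and 30.8 CPM on LPS. Males had 29.2, 16.4 and 21.7 CPM on HPS and 26.4, 23.1 and 15.7 CPM on LPS. The female HPS SD6 sample was the low one among females, and it lay below the SD2 males of both diets. The mean went from 32.2 ± 3.599 to 22.1 ± 5.35 CPM, a log2 change of −0.55 ± 0.12 (95% interval −0.81 to −0.29, edgeR adjusted p = 0.0326).

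All 6 pairs were lower in males for dsx, as for 5.75% of the tested genes, with log2 differences from −1.06 (SD3 on HPS) to −0.23 (SD2 on HPS). Without the 2 doubted libraries dsx changed by −0.48 ± 0.11 (edgeR adjusted p = 0.0208). The call was lost in 7 of the 12 fits that left out 1 sample, namely those without any 1 of the 6 female samples and without male LPS SD2, with an adjusted p of up to 0.0933.

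fru, a BTB-zinc finger gene whose male-specific proteins build the courtship circuit, fell in males to 77.9% of the female mean. SD2, SD3 and SD6 females had 64.0, 73.8 and 74.1 CPM on HPS and 78.7, 84.8 and 74.8 CPM on LPS. Males had 50.9, 54.6 and 64.8 CPM on HPS and 55.3, 60.2 and 65.0 CPM on LPS. Only the female HPS SD2 sample, at 64.0 CPM, lay below any male sample, and the 2 males above it were those labelled SD6. The mean fell from 75.1 ± 6.84 to 58.5 ± 5.80 CPM, a log2 change of −0.36 ± 0.06 (95% interval −0.50 to −0.22, edgeR adjusted p = 0.0146).

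All 6 pairs of fru were lower in males, by −0.51 to −0.19 on the log2 scale. The change without the doubted libraries was −0.35 ± 0.07 (edgeR adjusted p = 0.013). Leaving out either of the SD2 male samples ended the call, with an adjusted p of up to 0.052. The promoter that gives the male-specific fru transcripts is 1 of several, and the count sums transcripts from all of them.

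Neither ix nor her was called by sex. ix, a Mediator subunit that works with the female form of Dsx, ran from 10.3 to 13.0 CPM in females with a median of 11.1 and from 8.52 to 15.0 CPM in males with a median of 11.8. The male samples enclosed all the female ones, and the log2 difference was 0.04 ± 0.10 (interval −0.18 to 0.26, edgeR adjusted p = 0.884). her, a zinc finger gene required for female differentiation, had 21.5, 22.5 and 21.99 CPM in SD2, SD3 and SD6 females on HPS and 22.7, 20.2 and 21.7 CPM on LPS. Its males had 24.8, 24.0 and 27.3 CPM on HPS and 22.7, 26.3 and 23.9 CPM on LPS.

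For her no male sample lay below a female one, the only such case among the 10 genes, against 0.967% of the tested genes in that direction. The gap was narrow: male LPS SD2 had 22.72 CPM and female LPS SD2 had 22.67. The 2 libraries summed to that male sample differed, with 25.5 CPM in the larger run and 21.9 CPM in the smaller (without TMM scaling). With 21.8 ± 0.90 against 24.9 ± 1.69 CPM, her had a log2 difference of 0.19 ± 0.07, higher in males in 6 of 6 pairs (4.7% of the tested genes), and missed the threshold (edgeR adjusted p = 0.162, and 0.199 without the 2 libraries).

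**Figure D3:**
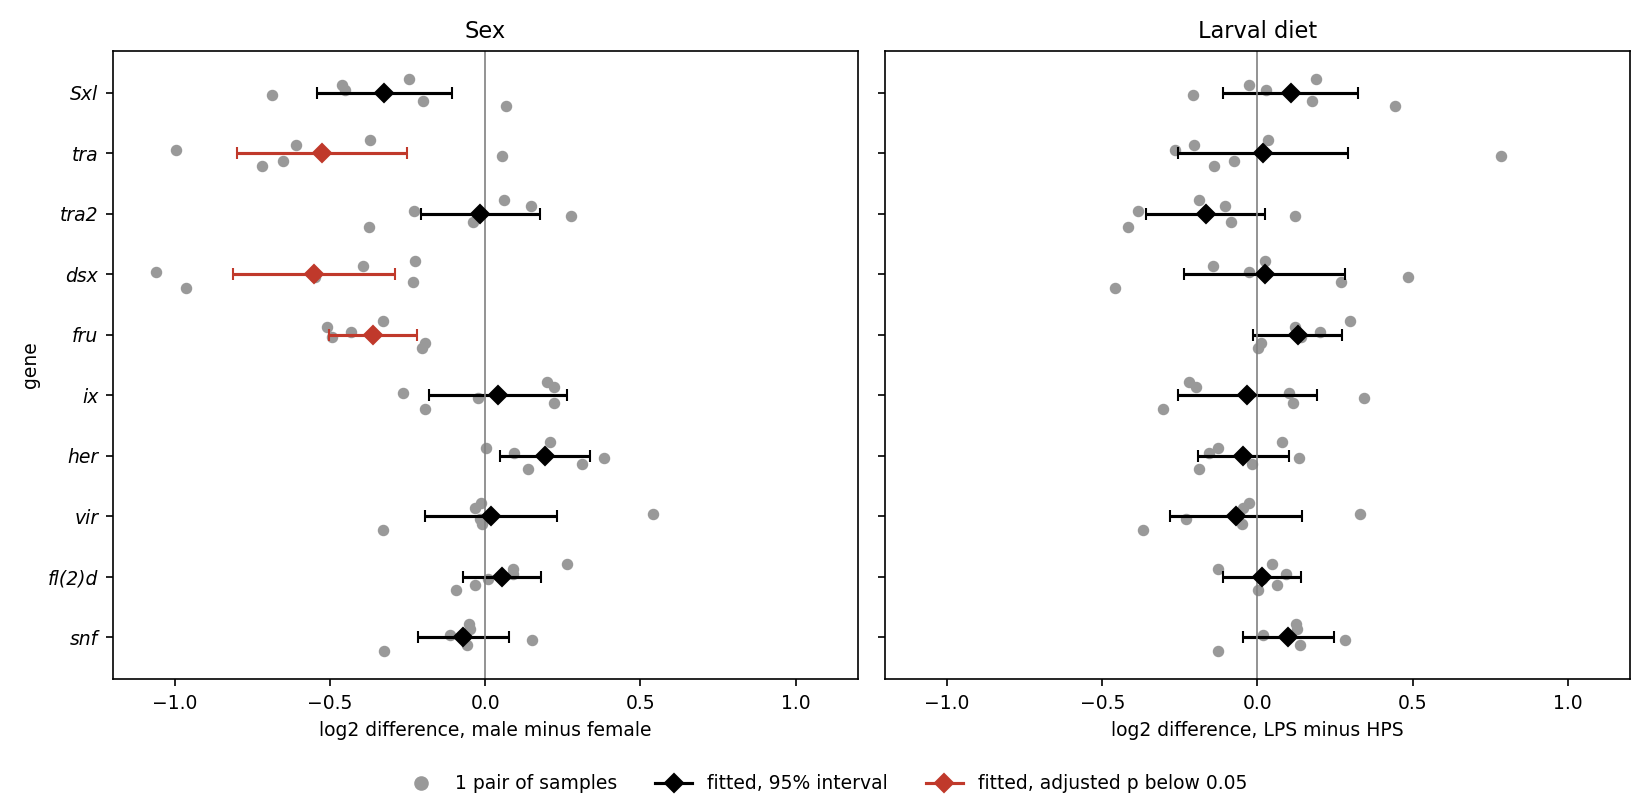
Log2 differences of the 10 genes in the 12 samples as labelled, male minus female (left) and LPS minus HPS (right), with diamonds and bars for the edgeR estimate and its 95% interval, red where the adjusted p was below 0.05, and grey points for the 6 pairs of samples. For dsx, tra, fru and Sxl the interval of the sex difference lies below 0 and for her above 0, and the interval of every diet difference includes 0.

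The calls depended on which samples were in the fit, and those of SD2 males were among the ones that mattered. In the larger run alone, without male HPS SD2 and with 1 library of male LPS SD2, dsx changed by −0.65 ± 0.12 (edgeR adjusted p = 0.0364), while fru at −0.36 ± 0.07 (adjusted p = 0.0509) and tra at −0.54 ± 0.14 (adjusted p = 0.109) missed the threshold. Without male HPS SD2 alone the same held, with an edgeR adjusted p of 0.0485 for dsx, 0.0503 for fru and 0.0915 for tra, and with the second male LPS SD2 library in place of the sum all 3 calls held. With no SD2 males none of the 10 genes passed, with log2 differences of −0.68 for dsx, −0.54 for tra, −0.33 for fru and −0.31 for Sxl. The directions thus held where the calls did not. Leaving out male LPS SD2 alone also left none of the 10, and leaving out the library labelled male LPS SD6 alone left 4. Calls over all genes moved too, from 305 as labelled to 154 without male HPS SD2 and 158 without male LPS SD2. There were 559 without the library labelled male LPS SD6. The larger run alone and the fit with no SD2 males also called fewer genes over all, as given in the last section.

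Markers of some other cells moved with sex too, and their part in the differences was not tested. Summed levels of 3 haemocyte markers were 37.7 to 57.9 CPM in females and 22.3 to 36.9 CPM in males, with no overlap, and 2 of the 3 were called lower in males (Hml and NimC1). He, with 0 to 6 reads in a sample, was not tested. Of 4 muscle markers Mhc was called lower in males, and Act88F stood the other way at 3.72 ± 1.51 CPM in females and 6.13 ± 3.46 CPM in males without being called (edgeR adjusted p = 0.197). The muscle sum, most of it Mhc, was 7041 to 10374 CPM in females and 5935 to 7638 CPM in males (all marker sums are without TMM scaling). None of 4 fat body markers was called by sex, and their sums overlapped, at 1416 to 2032 CPM in females and 1239 to 2063 CPM in males. Sums of 4 neuron markers, which define the labelled tissue together with the photoreceptor and glia markers, were 2015 to 2456 CPM in females and 2293 to 3222 CPM in males, and none of these 11 markers was called by sex. Markers of testis and accessory gland summed to at most 2.72 CPM and of ovary and germ line to at most 2.19 CPM in any sample. In RNA from whole heads, fewer cells that express a gene and less RNA per cell cannot be told apart.

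Whether the sex difference depends on the food or on the line was tested with interaction terms. For sex by diet no gene of 10026 passed by edgeR, DESeq2 or limma-voom (0% called). At an unadjusted p below 0.05 there were 180 genes (1.8%) and none of the 10. On HPS the log2 differences were −0.65 ± 0.18 for tra, −0.48 ± 0.18 for dsx, −0.31 ± 0.09 for fru and −0.31 ± 0.15 for Sxl, and on LPS they were −0.41 ± 0.17, −0.62 ± 0.17, −0.41 ± 0.09 and −0.34 ± 0.15. All 4 genes were lower in males on both foods. Within 1 diet, with 3 samples per sex, none of the 10 passed as labelled, and 0.319% (HPS) and 0.259% (LPS) of all genes did.

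Without the 2 doubted libraries no gene passed for sex by diet either (0% of 10373), but on HPS tra at −0.65 ± 0.12 (edgeR adjusted p = 0.0152) and Sxl at −0.30 ± 0.07 (0.0396) were called lower in males, with 4.38% of all genes. All samples on HPS are the same in both fits, and the spread is estimated over all samples. On LPS, where 1 male sample is then left and is assumed to vary like the others, none of the 10 passed, with 0.357% of all genes.

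For sex by line none of the 10 genes passed (edgeR 0 genes, or 0%, and 478 at an unadjusted p below 0.05, or 4.77%, DESeq2 1 gene, limma-voom 0). As labelled the smallest unadjusted p among the 10 was 0.0939, for Sxl, whose sex difference was −0.35 ± 0.14 in SD2, −0.56 ± 0.14 in SD3 and −0.06 ± 0.14 in SD6. The value for SD6 contains the male LPS sample of 224 CPM that goes against its label. Values for SD2 compare females of the larger run with males wholly or partly of the smaller run. dsx differed by −0.31 ± 0.19, −0.78 ± 0.20 and −0.58 ± 0.20 in the same order of lines, and fru by −0.42 ± 0.10, −0.47 ± 0.10 and −0.20 ± 0.10. None of the 10 was called within a line, with 0.15%, 0.209% and 0.12% of all genes called in SD2, SD3 and SD6.

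Without the 2 libraries, with 1 male sample each left in SD3 and SD6, again no gene passed for sex by line (0%). The smallest unadjusted p among the 10 was then that of dsx at 0.0116 (edgeR adjusted p = 0.444), and that of Sxl was 0.547. dsx differed by −0.32 ± 0.11 in SD2, −1.03 ± 0.17 in SD3 (edgeR adjusted p = 0.0121) and −0.36 ± 0.15 in SD6, and Sxl by −0.36 ± 0.09 (0.0461), −0.42 ± 0.12 and −0.24 ± 0.12. Called in SD2 were also tra at −0.51 ± 0.12 and fru at −0.43 ± 0.09, and in SD3 tra at −0.92 ± 0.20. In SD2 sex is mixed with run, since only its males have libraries in the smaller run. Between the repeated libraries of male LPS SD2, smaller minus larger run, log2 CPM differed by 0.33 for Sxl and 0.37 for dsx. The same difference was 0.11 for fru and −0.20 for tra. The part of run in the SD2 differences was not tested. Of all genes 3.93% were called in SD2, 1.67% in SD3 and 0.935% in SD6, the last with none of the 10.

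By larval diet none of the 10 genes passed in edgeR, DESeq2 or limma-voom, and none had an unadjusted p below 0.05. Over all genes 10 passed in edgeR, or 0.0997%, and 8.82% had an unadjusted p below 0.05. The median log2 difference, LPS minus HPS, was 0.02 over the 10 genes and 0.01 over all, and the sizes had a median of 0.06 against 0.09 over all tested genes. Without the doubted libraries 1.42% of the genes passed, and again none of the 10, with −0.15 ± 0.08 for tra2 (edgeR adjusted p = 0.439) and 0.14 ± 0.07 for fru (0.422).

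The largest diet difference was that of tra2, with 17.2 to 20.1 CPM and a median of 18.9 on HPS against 13.6 to 18.7 CPM and a median of 17.1 on LPS. It came to −0.17 ± 0.09 (95% interval −0.36 to 0.03, edgeR adjusted p = 0.63), negative in 5 of 6 pairs of the same line and sex. fru had 50.9 to 74.1 CPM with a median of 64.4 on HPS and 55.3 to 84.8 CPM with a median of 69.9 on LPS. It was higher on LPS in 6 of 6 pairs, as were 2.73% of the tested genes, but by as little as 0.003 in 1 pair, and its difference of 0.13 ± 0.06 (interval −0.01 to 0.27) had an edgeR adjusted p of 0.613.

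For the other 8 genes the diet differences lay between −0.07 (vir) and 0.11 (Sxl). Intervals were −0.11 to 0.32 for Sxl, −0.26 to 0.29 for tra and −0.24 to 0.28 for dsx. A diet effect as large as the sex difference of tra or dsx thus lay outside their intervals. For fl(2)d the interval was −0.11 to 0.14, the narrowest.

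Between the lines, 9.2% of all genes passed and none of the 10 did (edgeR F-test over both line terms, and none by DESeq2 or limma-voom). dsx alone had an unadjusted p below 0.05, against 24.3% of all genes, with an edgeR adjusted p of 0.179. Its mean was 31.1 ± 4.01 CPM in SD2, 26.9 ± 8.73 in SD3 and 23.4 ± 6.35 in SD6 (SD, n = 4 each). SD6 minus SD2 came to −0.43 ± 0.14 (edgeR adjusted p = 0.0911), a contrast in which 10% of all genes passed. DESeq2 called it (adjusted p = 0.0493), as did edgeR without male HPS SD3 (0.0495), and the edgeR adjusted p ran up to 0.252 over the fits that left out 1 sample. The value was −0.32 ± 0.12 without the 2 doubted libraries (edgeR adjusted p = 0.0819, 22.4% of genes called), −0.28 in the larger run and −0.25 with no SD2 males.

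ix separated SD2, at 15.0 and 13.0 CPM in males and 13.0 and 11.2 CPM in females on HPS and LPS, from SD3, at 8.52 and 10.8 CPM in males and 10.3 and 11.02 CPM in females. The SD3 samples, 1 of them a doubted library, lay below all SD2 samples, as they did for 6.69% of the tested genes. SD3 minus SD2 at −0.34 ± 0.12 missed the threshold (edgeR adjusted p = 0.111), which 9.81% of all genes passed, and stayed above it at −0.35 ± 0.13 without the doubted libraries (0.0773). Without the 2 doubted libraries 35.1% of the genes passed by line, and of the 10 genes only tra did (edgeR adjusted p = 0.0325). There tra stood lower in SD3 than in SD2 by −0.35 ± 0.11 (adjusted p = 0.0393, 23.2% of genes called) and higher in SD6 than in SD3 by 0.39 ± 0.11 (adjusted p = 0.0284, 20.2% called). As labelled these contrasts of tra were −0.16 ± 0.15 and 0.18 ± 0.15 and did not pass. Each passed in 1 of 20 alternative fits, the one without the 2 doubted libraries. The male HPS SD3 sample had the lowest tra level, 8.40 CPM from 70 reads. With that sample alone left out, the contrasts were −0.038 and 0.067. Leaving it out together with the 2 doubted libraries was not tested.

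Around the hierarchy lie the genes that feed it and those that it commands. Of 10 genes listed for the X signal and the control of Sxl activation in the embryo, some of them autosomal, 7 were tested in these heads. None of the 7 was called by sex. sisA, sc and upd1, which signal the X dose in the early embryo, had at most 3 reads in any sample. None of 15 genes of m6A and splicing that work with Sxl, and none of 7 partners of Tra and Tra2 such as the SR protein SF2, was called by sex either. The median log2 difference was 0.07 in the first list, 0.05 in the second and 0.05 in the third, beside 0.01 over all genes.

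Some genes of dosage compensation, which Sxl holds off in females, differed by sex in transcript level. The part of Sxl in these differences was not tested. Sxl protein represses msl-2, which encodes the limiting subunit of the complex that doubles X-chromosome transcription in males. msl-2 rose from 18.3 to 21.3 CPM in the 6 female samples to 35.2 to 48.8 CPM in the 6 male ones, a log2 change of 0.98 ± 0.07 (edgeR adjusted p = 6.66e-05). Of the 7 dosage compensation genes 3 were called, all higher in males, against 3.04% of all tested genes called by sex. Those called beside msl-2 were roX1 and roX2. roX1 rose by 9.31 ± 0.27 (edgeR adjusted p = 9.84e-09), and roX2 had 0 to 2 reads in female samples and 223 to 1610 in male ones. The genes msl-1, msl-3, mle and mof, whose products join the same complex, were not called, with 0.38 ± 0.12 for mof (edgeR adjusted p = 0.142).

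Of 14 tested genes known to act under or with Dsx or Fru, 3 were called lower and 2 higher in males, against 3.04% of all tested genes called by sex. The lists were chosen with earlier results of these data known. The yolk protein genes Yp1, Yp2 and Yp3, textbook targets that the female form of Dsx turns on in the fat body, fell, with log2 changes of −9.11 ± 0.21, −7.28 ± 0.46 and −3.43 ± 0.30. Yp1 had 1458 to 3340 CPM in female samples and 2.49 to 6.13 CPM in male ones, and its edgeR adjusted p was 2.42e-09. sxe1, a cytochrome P450 gene, rose from 2.44 ± 0.44 to 9.07 ± 4.84 CPM (log2 change 1.87 ± 0.32, edgeR adjusted p = 0.0116). sxe2, a lipase gene, rose from 20.8 ± 6.45 to 50.5 ± 20.3 CPM (1.31 ± 0.21, edgeR adjusted p = 0.00908).

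The other 9 genes of that list, among them bab1, dsf, retn and Lgr3, were not called. fit, a gene of the female fat body around the brain, had 0 to 27 reads in any sample, and passed as a 6th gene without the doubted libraries. Of the DM-domain relatives of dsx, dmrt99B alone was tested and it was not called. None of these 6 lists held a gene called by diet. By line, crn (edgeR adjusted p = 0.0341) and roX2 (0.0312) were called.

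**Figure D4:**
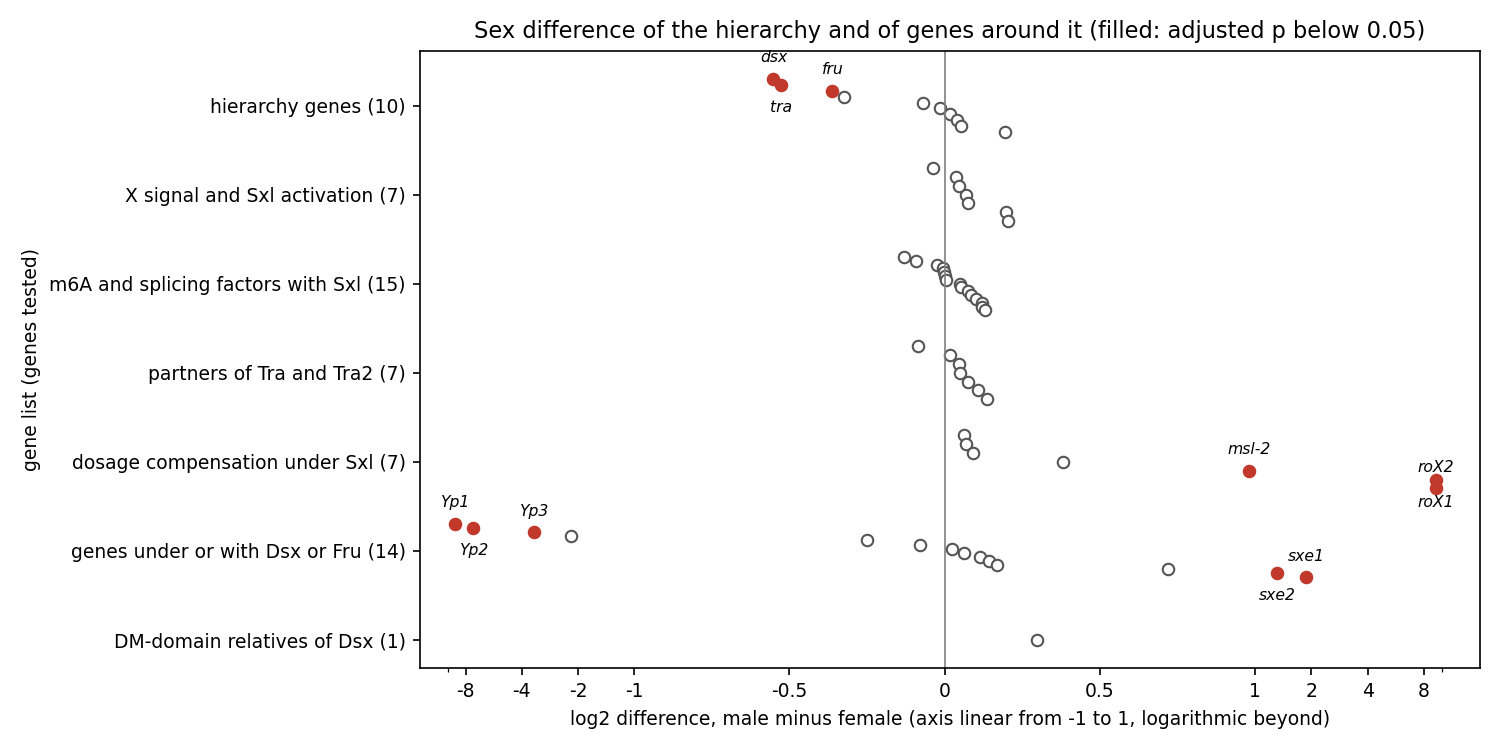
Log2 difference, male minus female, of the 10 hierarchy genes and of the tested genes of 6 lists around them, on an axis that is linear from −1 to 1 and logarithmic beyond. Filled points had an edgeR adjusted p below 0.05: they comprise dsx, tra and fru among the 10 genes, msl-2, roX1 and roX2, and Yp1, Yp2, Yp3, sxe1 and sxe2.

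Over the 12 samples, genes whose log2 CPM ran most like that of a hierarchy gene were listed by Pearson's r, as a description over samples that share sex, line and run. Closest to Sxl were Tpst (r = 0.950), CG4554 (0.930) and lncRNA:CR45517 (0.892). Closest to tra were CG8507 (0.945), CG42336 (0.937) and Septin1 (0.930), and to dsx lncRNA:CR44754 (0.965) and Setd3 (0.941). fru was followed by Dfd (0.911), a homeotic gene of head segments, CG15916 (0.907) and clu (0.904).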

How the data were processed

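Poly(A) RNA was sequenced as stranded single-end reads of 75 bp, per the labels' protocols. The deposited values are raw read counts per gene, made by the authors with TopHat2 2.1.0 and HTSeq 0.6.1p1 after CASAVA 1.8.2 and bcl2fastq 1.8, per the submitters' processing notes. The names of the deposited tables mark uniquely mapped reads on the reverse strand. Which genome build and annotation was used is not given in the sources used here. Symbols came from the Ensembl annotation (17155 of 17370 genes matched). The 96 spike-in and 5 summary entries stayed out of library sizes and tests, and reads in no gene made up 2.93% to 4.96% of a library in the larger run and 10.4% to 15.0% in the smaller.

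Counts were tested with edgeR 4.0.16 (R 4.3.3): TMM scaling, filterByExpr at a minimum count of 10, and quasi-likelihood F-tests with sex, diet and line as a fixed block. Line is the replicate number and pairs the samples by design (correlations of 0.617 to 0.809 without the 2 doubted libraries, −0.363 to −0.269 with them). Alternatives used DESeq2 1.42.0, limma 3.58.1, other filters, scalings, runs and blocks, and left out samples. The counts of the repeated male LPS SD2 library differed by more than sampling noise (chi-square of 13.0 per degree of freedom over 10118 genes). The code was tested on simulated counts. The 10 genes and the lists around them were chosen with earlier results of these data known. Every hierarchy gene is named, from each list at most 5 genes by adjusted p of sex, and up to 3 genes per likeness, of which 1 is not reported here. Genes named beyond that rule were named after their values were seen. Of the ovary and germ line markers 6 of 7 symbols were matched.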

Additional observations from a re-analysis of the deposited data

Results flagged for a closer look

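Of 70 groups of samples looked at for a sample far from the others, 3 held one, and chance gives about 1 in 20. Among the 6 male samples male HPS SD2, whose sole library is in the smaller run, had 74.8 CPM of fl(2)d, above the others at 68.5 to 69.2 CPM. Among the 4 SD3 samples female HPS SD3 had 64.4 CPM of fl(2)d, below the others at 68.5 to 69.2 CPM. Among the 4 samples labelled SD6 the male LPS one, a doubted library, had 26.5 CPM of vir, below the others at 33.3 to 34.5 CPM.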

How the results depend on the processing

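Called by sex were 3 of the 10 genes (305 of all) as reported and 3 with no filter, RLE size factors, limma-voom or the second male LPS SD2 library alone. DESeq2 called 4, with Sxl added (601 genes by sex, 111 by diet, 1479 by line, 1 for sex by line), and limma-voom called 18 genes by diet. Without the 2 doubted libraries 801 genes were called by sex, 147 by diet and 3645 by line, and 1 of the 10 by line. The larger run gave 1 of the 10 by sex (118 genes, 0 by diet, 407 by line), and no SD2 males gave 0 (40, 0 and 87). With no replicate block by line the call of sex stayed with 1 of the 10 (fru; 153 genes by sex, 0 by diet), and a replicate block by set of vials left 1 (fru; 190). A block by line and sex gave 3 genes by diet. Within HPS and within LPS 0 of the 10 were called as labelled (32 and 26 genes), and 2 (tra and Sxl) and 0 without the 2 libraries (454 and 37 genes). Leaving out 1 sample gave 0 to 4 of the 10 by sex, 140 to 559 genes by sex, 0 to 83 by diet, 394 to 2281 by line and up to 4 for sex by line. Without SD2 males sex by line could not be estimated.

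Signs turned only for differences that were not called. For sex, tra2 turned to 0.0061 (limma-voom), 0.0028 (without the 2 libraries) and 0.032 (LPS), ix to −0.019 (larger run) and −0.048 (no SD2 males), fl(2)d to −0.0059 (no SD2 males) and vir to −0.12 (LPS). For diet, tra turned to −0.0024 (limma-voom) and −0.078, and vir to 0.0032 (both without the 2 libraries), and ix to 0.012 (larger run) and 0.0016 (no SD2 males). Leaving out 1 sample crossed 0 with sex differences of −0.062 to 0.043 for tra2, −0.012 to 0.10 for ix and −0.064 to 0.080 for vir. Diet differences that crossed 0 this way were −0.058 to 0.085 for dsx, −0.0089 to 0.054 for fl(2)d, −0.10 to 0.019 for ix and −0.096 to 0.069 for tra. The causes were not tested. The lowest counts per library were those of tra (70 to 465 reads) and ix (71 to 293).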
